A study of Homo sapiens with 30 samples.

Results

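The mitosis and spindle genes are 58 human genes whose products condense and separate chromosomes, build the spindle, check its attachments and divide the cell. Of these, 57 were measured, each by a probe set of an Affymetrix array that the platform annotation assigns to that gene alone, and they are set here among 10050 genes tested. Where several probe sets of a gene passed the filter, which was the case for 20 of the 57 genes, the one with the highest mean over all arrays was used. NUF2, the partner of NDC80 at the kinetochore, had no such probe set. All 57 passed the filter on low values, 48 of them by lying above the array's 25th percentile on all 30 arrays and 9 on fewer arrays. These 9 were KIF11 (17 arrays), AURKB (23), CDC25C and KIF15 (24 each), SPC25 (25), KIF20A (27), and NEK2, DLGAP5 and NCAPH (29 each).

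RNA came from THP-1, a human cell line of monocytic leukaemia origin. In every group the cells had first been made macrophage-like with 82 nM phorbol 12-myristate 13-acetate (PMA) for 24 h, then washed, scraped, counted and plated again. They then met MWCNT, which are multi-walled carbon nanotubes, at 100 or 10 µg/ml, or TiO2-NB, which are titanium dioxide nanobelts, at 100 or 10 µg/ml, or no particles, each for 24 h or 1 h. The labels describe the 3 arrays of each of the 10 groups as biological replicates, and RNA was taken from the cells that still adhered after a wash. The design asks how each material, dose and time changed expression, and both materials share the same control arrays. Values are log2 intensities, so a difference of 1 is a doubling, and because probes differ in brightness no gene's level is set against another gene's.

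Array medians lay between 6.35 and 6.46. Of 12 myeloid markers 11 were measured. The brightest were ITGB2 at a mean of 13.41, TYROBP at 12.97 and CTSB at 12.82, and the dimmest CD14 at 7.18 and SPI1 at 7.23. The epithelial and lymphocyte markers that passed the filter had means of at most 5.78. Of the fibroblast markers COL1A1 had a mean of 7.97, while COL1A2, DCN and PDGFRB lay at 4.94, 5.46 and 6.34, and COL3A1 and LUM did not pass the filter. Arrays give no read depth, and 3 arrays a group limit the precision.

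Mitotic genes are transcribed late in the cell cycle, so that their messenger RNA is high in cells about to divide and low in cells that have left the cycle. Cyclin B with CDK1 starts mitosis, the spindle checkpoint holds it until every kinetochore is attached, and the anaphase-promoting complex then releases separase and destroys the cyclins. PMA is known to stop THP-1 cells from dividing as they become macrophage-like. Many of these promoters carry a cell cycle gene homology region (CHR), a short element through which complexes built on the MuvB core act, together with CCAAT boxes, which bind NF-Y.

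Promoters of 4 members are shown because their products act at the entry to mitosis and because PLK1 did not pass the test with MWCNT while CDK1, CCNB1 and CCNB2 did. The sequences are from RefSeq on GRCh38.p14, each 250 bases before to 50 bases after the transcript start, 5′ to 3′ on the plus strand. Capitals mark the CHR core TTTGAA and the CCAAT box on either strand. The window of CDK1 is chr10:60778228-60778527, that of CCNB1 chr5:69166900-69167199, that of CCNB2 chr15:59104896-59105195 and that of PLK1 chr16:23678639-23678938.
CDK1: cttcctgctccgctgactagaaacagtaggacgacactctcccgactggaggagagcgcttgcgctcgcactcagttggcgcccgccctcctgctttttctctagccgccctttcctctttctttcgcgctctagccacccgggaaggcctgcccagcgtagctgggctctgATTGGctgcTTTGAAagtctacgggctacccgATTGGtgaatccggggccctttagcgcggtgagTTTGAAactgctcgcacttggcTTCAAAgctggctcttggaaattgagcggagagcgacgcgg
CCNB1: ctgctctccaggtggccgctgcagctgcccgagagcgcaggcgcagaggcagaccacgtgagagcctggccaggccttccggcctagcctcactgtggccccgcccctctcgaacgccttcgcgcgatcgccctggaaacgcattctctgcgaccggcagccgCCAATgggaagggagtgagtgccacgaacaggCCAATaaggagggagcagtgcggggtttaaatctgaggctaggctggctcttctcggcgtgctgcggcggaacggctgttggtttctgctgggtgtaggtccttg
CCNB2: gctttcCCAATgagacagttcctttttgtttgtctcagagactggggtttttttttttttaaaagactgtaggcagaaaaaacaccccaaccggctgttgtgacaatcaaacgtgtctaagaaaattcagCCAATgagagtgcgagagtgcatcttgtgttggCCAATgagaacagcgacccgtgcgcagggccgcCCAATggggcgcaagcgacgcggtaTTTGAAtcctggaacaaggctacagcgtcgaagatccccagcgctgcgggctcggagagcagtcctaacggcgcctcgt
PLK1: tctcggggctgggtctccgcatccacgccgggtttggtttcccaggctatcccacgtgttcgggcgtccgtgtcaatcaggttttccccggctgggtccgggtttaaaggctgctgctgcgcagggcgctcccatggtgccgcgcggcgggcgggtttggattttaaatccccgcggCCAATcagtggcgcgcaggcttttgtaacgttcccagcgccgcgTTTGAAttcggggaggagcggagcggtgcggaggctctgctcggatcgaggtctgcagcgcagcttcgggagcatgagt

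A window was listed for 47 of the 57 measured genes. On either strand TTTGAA stood in a window of 35 of these 47 genes, or 74.5%, against 18.2% of 27305 genes with a promoter window and 14.5% of the 8129 tested genes that have one. The related core TTCGAA was found for 2 of the 47. Other forms, such as TTTAAA, were not searched. CCAAT stood in a window of 37 of them, or 78.7%, against 39.7% of all genes. A CHR core of either form and CCAAT stood in the same window for 29, or 61.7%, against 7.85% of all genes. In position, the first base of a CHR core lay in the 50 bases before the start in 37.3% of 59 member windows and in 2.73% of all windows. In the 50 bases from the start onward the shares were 22.0% and 2.41%. The bars of motif positions show member windows above all windows mainly in these last 2 bins. A match is a description of letters, and the factor that uses it was not measured.

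**Figure D1:**
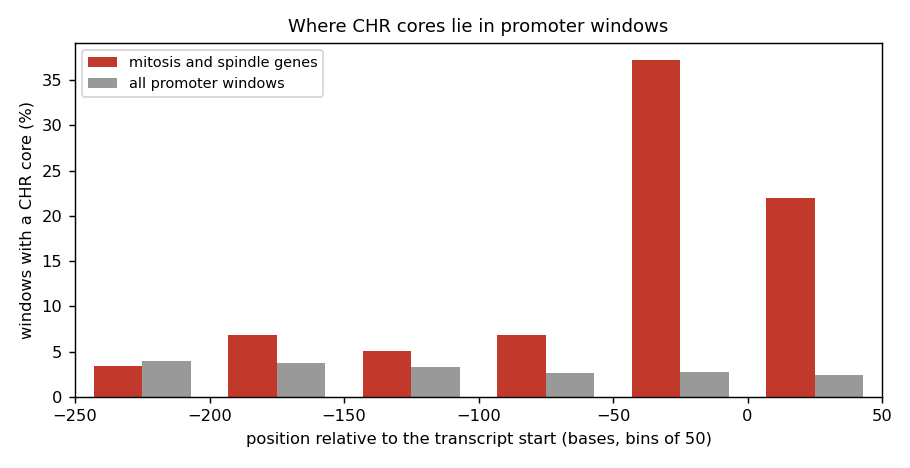
Share of promoter windows (%, vertical axis) that hold a CHR core (TTTGAA or TTCGAA, either strand), by position of its first base relative to the transcript start in bins of 50 bases (horizontal axis), for the windows of the mitosis and spindle genes and for all windows. Member windows reach 37.3% just before the start, where all windows reach 2.73%.

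After 24 h with 100 µg/ml MWCNT, 43 of the 57 mitosis and spindle genes were higher than in the 24 h control and none was lower (limma, Benjamini-Hochberg adjusted p under 0.05 over all 10050 genes). Of all genes tested, 8.99% were called higher and 4.04% lower. The median log2 fold change of the 57 was 0.70, against -0.01 over all genes. In 49 of them every MWCNT array lay above every control array, which was so for 17.1% of all genes. Of the called genes, 37 changed by at least 1.5-fold and 14 by at least 2-fold. In bulk RNA, more cells that express these genes and more RNA per cell cannot be told apart.

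**Figure D2:**
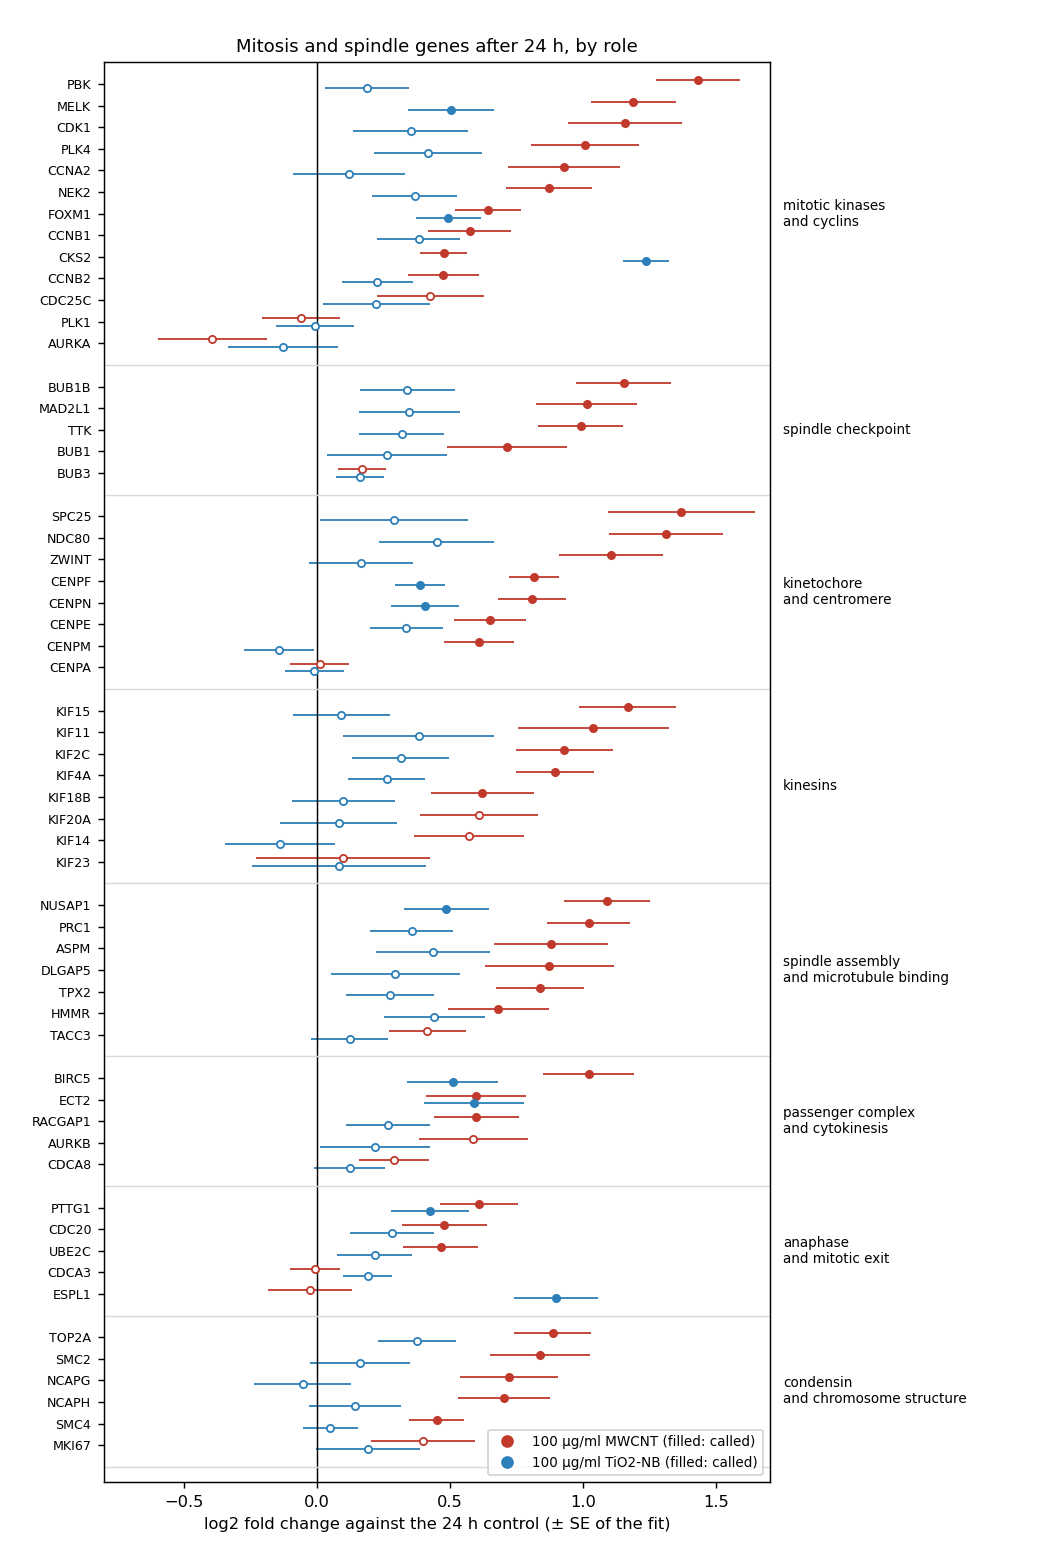
Log2 fold change against the 24 h control (horizontal axis, ± SE of the fit) of each of the 57 genes, grouped by role, for 100 µg/ml MWCNT and 100 µg/ml TiO2-NB. Filled points passed an adjusted p under 0.05. Most MWCNT points lie right of the TiO2-NB points, while CKS2 and ESPL1 lie well to the other side.

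Among the mitotic kinases and cyclins, 10 of 13 genes rose with 100 µg/ml MWCNT at 24 h. PBK, a kinase active in mitosis, measured 7.77, 7.71 and 7.60 in the MWCNT arrays, against 5.92, 6.31 and 6.56 in the control arrays, a log2 fold change of 1.43 ± 0.16 (SE, n = 3 each, limma adjusted p = 1.57e-06). MELK, a kinase of dividing cells, measured 8.44, 8.41 and 8.32 in the MWCNT arrays, against 6.99, 7.20 and 7.42 in the controls, which is 1.19 ± 0.16 (adjusted p = 2.09e-05). CDK1, the kinase that drives entry into mitosis, measured 8.04, 7.86 and 7.81 in the MWCNT arrays, against 6.59, 6.82 and 6.82 in the controls, which is 1.16 ± 0.21 (adjusted p = 0.000588). In all 3 genes the lowest MWCNT array stood well above the highest control array. The centriole kinase PLK4 rose by 1.01, cyclin A2 (CCNA2) by 0.93, NEK2, which separates centrosomes, by 0.87, and FOXM1, a transcription factor for mitotic genes, by 0.64. A second, dimmer NEK2 probe set gave 0.06. The partners of CDK1 rose less, CCNB1 by 0.57, CKS2 by 0.48 and CCNB2 by 0.47.

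PLK1, AURKA and CDC25C did not pass the test. PLK1, a kinase needed from centrosome maturation to cytokinesis, measured 5.99, 5.76 and 6.09 in the MWCNT arrays, against 6.11, 5.89 and 6.02 in the controls, and the 95% interval of its log2 fold change was -0.36 to 0.24. AURKA, the kinase of the spindle poles, measured 7.76, 8.13 and 8.10 in the MWCNT arrays, against 8.48, 8.59 and 8.09 in the controls, a log2 fold change of -0.39 ± 0.21 (limma adjusted p = 0.238). PLK1 and AURKA arrays overlapped between the groups. A second AURKA probe set gave -0.34 and another, dimmer one 0.00. CDC25C, the phosphatase that switches CDK1 on, had a log2 fold change of 0.43 by the probe set used, while its 2 others gave 0.31 and -0.33.

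Of the 5 spindle checkpoint genes 4 rose. BUB1B, which encodes the checkpoint protein BubR1, measured 7.24, 7.47 and 7.37 in the MWCNT arrays, against 6.06, 6.40 and 6.16 in the controls (1.15 ± 0.18, limma adjusted p = 9.13e-05). MAD2L1, which restrains CDC20, measured 7.98, 7.79 and 8.05 in the MWCNT arrays, against 6.72, 7.04 and 7.02 in the controls (1.01 ± 0.19, adjusted p = 0.000607). TTK, the kinase that starts checkpoint signalling, measured 6.67, 6.74 and 6.90 in the MWCNT arrays, against 5.56, 6.09 and 5.70 in the controls (0.99 ± 0.16, adjusted p = 0.000137). None of the 3 overlapped between groups. BUB1 rose by 0.71 with the probe set used, and a dimmer second one gave -0.14. BUB3, which also binds outside mitosis, had 0.17 and did not pass.

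At the kinetochore and centromere, 7 of 8 measured genes rose. SPC25, a subunit of the microtubule-binding NDC80 complex, measured 6.22, 6.0 and 6.07 in the MWCNT arrays, against 4.55, 4.72 and 4.91 in the controls (1.37 ± 0.28, limma adjusted p = 0.00134). NDC80 itself measured 6.89, 6.89 and 7.07 in the MWCNT arrays, against 5.60, 5.83 and 5.49 in the controls (1.31 ± 0.22, adjusted p = 0.000167). ZWINT, an outer kinetochore protein, measured 8.89, 8.84 and 8.76 in the MWCNT arrays, against 7.52, 7.62 and 8.04 in the controls (1.10 ± 0.20, adjusted p = 0.000355). The groups were apart by more than the spread within either of them. SPC25 control values lay near or below the arrays' 25th percentile, which was 4.77 to 4.91. CENPN and CENPF rose by 0.81 each (0.65 and 0.29 by their second, dimmer probe sets), the motor CENPE by 0.65 and CENPM by 0.61. CENPA, the histone variant that marks the centromere, had a log2 fold change of 0.01 with a 95% interval of -0.22 to 0.24.

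Among the kinesins, 5 of 8 rose. KIF15, a motor that helps hold the spindle bipolar, measured 6.11, 6.01 and 6.10 in the MWCNT arrays, against 4.88, 4.57 and 5.29 in the controls (1.17 ± 0.18, limma adjusted p = 0.000102). KIF11, which pushes the poles apart, measured 4.92, 4.68 and 4.99 in the MWCNT arrays, against 3.55, 4.13 and 3.81 in the controls (1.04 ± 0.28, adjusted p = 0.0147). KIF2C, which takes microtubules apart at kinetochores, measured 8.02, 8.02 and 8.08 in the MWCNT arrays, against 7.10, 7.16 and 7.08 in the controls (0.93 ± 0.18, adjusted p = 0.00095). All 3 kinesins were higher in every MWCNT array than in any control array, though KIF11 did not pass in 2 of 6 fits that left out 1 array (adjusted p up to 0.091). KIF11 was also near the floor: its control values lay below the arrays' 25th percentile (4.77 to 4.91) and its MWCNT values around it. Of the KIF15 control values, 4.57 lay below that range and 4.88 within it. KIF4A rose by 0.89 and KIF18B by 0.62. KIF20A (0.61), KIF14 (0.57) and KIF23 (0.10), motors of late mitosis and cytokinesis, did not pass. KIF23 had the widest spread within groups of the 57 genes, with 6.63, 7.04 and 5.46 in the control arrays alone.

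Of 7 spindle assembly and microtubule-binding genes 6 rose. NUSAP1, which bundles spindle microtubules, measured 8.16, 8.10 and 8.09 in the MWCNT arrays, against 6.83, 7.08 and 7.17 in the controls (1.09 ± 0.16, limma adjusted p = 5.33e-05). PRC1, which crosslinks the microtubules of the central spindle, measured 7.53, 7.55 and 7.53 in the MWCNT arrays, against 6.33, 6.63 and 6.59 in the controls (1.02 ± 0.16, adjusted p = 7.48e-05). ASPM, a spindle pole protein, measured 6.69, 6.78 and 6.90 in the MWCNT arrays, against 5.74, 6.19 and 5.81 in the controls (0.88 ± 0.21, adjusted p = 0.00659). Again no array of one group reached into the other. DLGAP5 rose by 0.87, TPX2, the activator of AURKA, by 0.84 and HMMR by 0.68, while TACC3 had 0.41 and did not pass.

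In the passenger complex and cytokinesis list 3 of 5 genes rose. BIRC5, which encodes survivin, measured 7.15, 7.33 and 7.28 in the MWCNT arrays, against 6.12, 6.26 and 6.32 in the controls (1.02 ± 0.17, limma adjusted p = 0.000194). ECT2, the exchange factor that starts the contractile ring, measured 6.50, 6.32 and 6.41 in the MWCNT arrays, against 5.57, 6.09 and 5.77 in the controls (0.60 ± 0.19, adjusted p = 0.0347). RACGAP1, its partner at the central spindle, measured 6.70, 6.38 and 6.47 in the MWCNT arrays, against 5.65, 6.03 and 6.08 in the controls (0.60 ± 0.16, adjusted p = 0.0121). The 2 other BIRC5 probe sets gave 0.26 and 0.47. AURKB (0.59) and CDCA8 (0.29), which act in the same complex, did not pass. Leaving out 1 array ended the call of ECT2 in 5 of 6 fits (adjusted p up to 0.194) and that of RACGAP1 in 2 (up to 0.107), in both most of all without replicate 1 of the 24 h control.

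Genes of anaphase and mitotic exit rose least, 3 of 5 of them passing. PTTG1, securin, measured 8.63, 9.12 and 9.05 in the MWCNT arrays, against 8.36, 8.34 and 8.28 in the controls (0.61 ± 0.15, limma adjusted p = 0.00586). CDC20, which activates the anaphase-promoting complex, measured 8.55, 8.89 and 8.87 in the MWCNT arrays, against 8.32, 8.31 and 8.24 in the controls (0.48 ± 0.16, adjusted p = 0.0464). UBE2C, a conjugating enzyme of that complex, measured 7.78, 7.82 and 7.84 in the MWCNT arrays, against 7.20, 7.32 and 7.54 in the controls (0.46 ± 0.14, adjusted p = 0.0283). The groups did not overlap, but for PTTG1 and CDC20 the first MWCNT array lay closer to the controls than to the other two. Separase (ESPL1) had -0.02 and CDCA3 -0.01. The call of CDC20 was lost, at adjusted p from 0.0504 to 0.0682, with the replicate block over all groups, with no filter and with either other normalization. Leaving out 1 array ended the calls of CDC20 and UBE2C in 5 of 6 fits each (adjusted p up to 0.156 for both).

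Condensin and chromosome structure genes rose in 5 of 6 cases. TOP2A, the topoisomerase that untangles sister chromatids, measured 7.80, 7.87 and 7.93 in the MWCNT arrays, against 6.98, 7.08 and 6.89 in the controls (0.88 ± 0.15, limma adjusted p = 0.000169). SMC2, a core subunit of condensin, measured 7.18, 7.05 and 7.07 in the MWCNT arrays, against 5.92, 6.37 and 6.50 in the controls (0.84 ± 0.19, adjusted p = 0.00329). NCAPG, another condensin subunit, measured 7.84, 8.01 and 7.90 in the MWCNT arrays, against 7.13, 7.36 and 7.10 in the controls (0.72 ± 0.18, adjusted p = 0.00909). These 3 genes too had no array in common range. NCAPH rose by 0.70 and SMC4 by 0.45. The second probe set of TOP2A gave 0.44, and those of SMC4 0.51 and 0.01. MKI67, the gene of the proliferation marker Ki-67, had 0.40 and did not pass by the probe set used, and its 3 other probe sets gave 0.66, 1.04 and 0.46.

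Of 59 further mitotic genes outside the member list, 20 rose and 1, NDE1, fell. CENPU, a centromere protein, rose by 1.29 on the log2 scale and SKA1, which couples kinetochores to microtubules, by 1.28. CEP55, which acts at abscission, rose by 1.17, OIP5, which loads CENPA, by 0.93, CKS1B, the close relative of CKS2, by 0.74 and CENPQ by 0.71. Genes of DNA replication moved with them: 34 of 38 rose, with a median of 0.84, led by TYMS (1.49), CCNE2 (1.45) and RRM2 (1.38). Of 16 cell cycle exit and p53 target genes none rose and SESN1 (-0.46) and CCNG2 (-0.41) fell. CDKN1A, which encodes the CDK inhibitor p21, had -0.24 ± 0.10 (limma adjusted p = 0.123).

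At 10 µg/ml MWCNT for 24 h no mitosis or spindle gene passed the test (limma), and none of the 10050 genes did (0% called). At an unadjusted p under 0.05 there were 5 of the 57 and 421 of all genes. The median log2 fold change of the 57 was 0.17, against 0.01 over all genes, and 46 had a positive value. In 12 genes every array lay above every control array, which was so for 4.65% of all genes, and in 1, CENPA, below, beside 3.69%. Set directly against 10 µg/ml, 100 µg/ml MWCNT had 25 members higher and none lower, beside 3.1% of all genes called higher and 1.56% lower, with a median of 0.58. CDK1 at 0, 10 and 100 µg/ml averaged 6.75 ± 0.13, 7.09 ± 0.18 and 7.90 ± 0.12 (SD, n = 3 each). Group means rose in that order in 46 of the 57, and in 31.2% of all genes. Without replicate 1 of the 10 µg/ml group the 25 became 10, and without replicate 3 of the 100 µg/ml group 11.

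**Figure D3:**
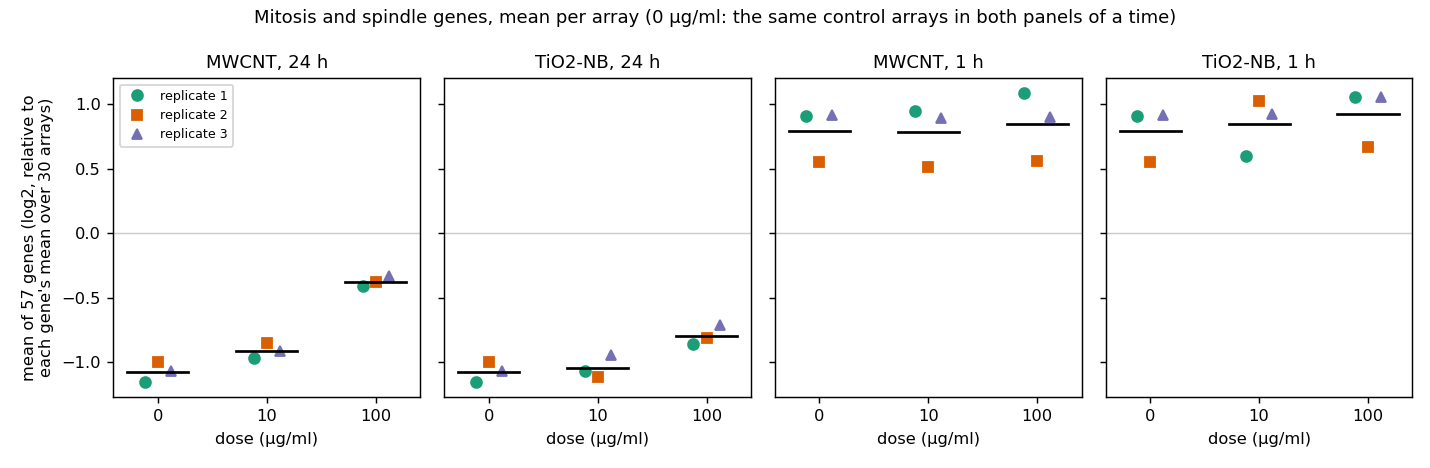
Mean of the 57 genes in each array, each gene relative to its own mean over 30 arrays (log2, vertical axis), by dose (horizontal axis, µg/ml), for each material and time. Points are arrays, marked by replicate number, and lines are group means. At 24 h the MWCNT arrays reach -0.34 at most and the controls average -1.07, and 1 array of each 1 h group lies below the other two.

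With 100 µg/ml TiO2-NB for 24 h, 10 of the 57 genes were higher than in the control and none was lower (limma), beside 10.9% of all genes called higher and 11.1% called lower. The median log2 fold change was 0.27, against 0.01 over all genes, and 20 members had no overlap with the controls in the upward direction, beside 16.6% of all genes. CKS2, the small protein that binds CDK1, measured 10.17, 9.73 and 9.91 in the TiO2-NB arrays, against 8.55, 8.74 and 8.81 in the controls (1.24 ± 0.09, adjusted p = 4.14e-10). ESPL1, the protease that cuts cohesin at anaphase, measured 7.93, 8.29 and 8.25 in the TiO2-NB arrays, against 7.39, 7.30 and 7.08 in the controls (0.90 ± 0.16, adjusted p = 0.000177). Neither gene overlapped between groups, and a second ESPL1 probe set gave 0.88. The other 8 rose by 0.39 to 0.59: ECT2, BIRC5, MELK, FOXM1, NUSAP1, PTTG1, CENPN and CENPF. Without replicate 1 of the 24 h control the 10 became 4, and without replicate 2 or 3 of the TiO2-NB group 6. BIRC5 (adjusted p = 0.0947) and NUSAP1 (0.124) did not pass when all kept probe sets of a gene were averaged.

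At 10 µg/ml TiO2-NB for 24 h none of the 57 passed (limma), beside 0.0199% of all genes called, and only CKS2, at 0.25 ± 0.09, was among the 474 genes with an unadjusted p under 0.05 (limma adjusted p = 0.885). Between 100 and 10 µg/ml, CKS2 (0.98), ESPL1 (0.71), PTTG1 (0.48), CENPF (0.32) and CDCA3 (0.30) were higher at 100 µg/ml, beside 7.38% of all genes. Without replicate 1 of the 10 µg/ml group, or without replicate 3 of the 100 µg/ml group, the count was 2 in place of 5. CKS2 at 0, 10 and 100 µg/ml averaged 8.70 ± 0.13, 8.95 ± 0.03 and 9.94 ± 0.22, and ESPL1 7.26 ± 0.16, 7.45 ± 0.08 and 8.16 ± 0.20 (SD, n = 3 each). The means rose with dose in 31 of the 57, and in 28.7% of all genes.

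Set directly against 100 µg/ml TiO2-NB at 24 h, 100 µg/ml MWCNT gave higher values in 28 members and lower values in 2 (limma), beside 14% and 10.9% of all genes. The median log2 difference was 0.51, against -0.02 over all genes. PBK differed most, at 7.77, 7.71 and 7.60 with MWCNT against 6.44, 6.42 and 6.50 with TiO2-NB (1.24 ± 0.16, adjusted p = 5.6e-06), a gap many times the spread of either group. SPC25 and KIF15 differed by 1.08 each, ZWINT by 0.94, NDC80 by 0.86, BUB1B, CDK1 and CCNA2 by 0.81 each, and NCAPG by 0.77. The 2 genes that were lower with MWCNT were ESPL1, at 7.15, 7.22 and 7.32 with MWCNT against 7.93, 8.29 and 8.25 with TiO2-NB (-0.92 ± 0.16, adjusted p = 0.000182), and CKS2, at 9.36, 9.09 and 9.08 against 10.17, 9.73 and 9.91 (-0.76 ± 0.09, adjusted p = 1.56e-06). No array overlapped in either gene. For ECT2 the difference was 0.01, with a 95% interval of -0.38 to 0.40. By role, higher values with MWCNT were called in 6 of 8 kinetochore genes, 5 of 6 condensin and chromosome structure genes and 3 of 5 checkpoint genes. Of these kinetochore genes, CENPF (0.43) and CENPN (0.40) differed by 0.16 and 0.02 by their second, dimmer probe sets, whose arrays overlapped. The other lists had 4 of 8 kinesins, 6 of 13 kinases and cyclins, 3 of 7 spindle assembly genes and 1 of 5 passenger and cytokinesis genes. The last was BIRC5 (0.51), whose other probe sets gave 0.17 and 0.18. Its call was lost in 4 of 6 fits that left out 1 array (limma adjusted p up to 0.090). With the mean of all kept probe sets it was also lost (adjusted p = 0.0913). No anaphase and mitotic exit gene was called higher. Equal replicate numbers deviated together between these 2 groups, and with the replicate number as a block, fitted on their arrays alone, 38 members were higher and 4 lower, beside 18.9% and 15.4% of all genes. The 2 further lower genes were AURKA (-0.27, adjusted p = 0.0237) and CDCA3 (-0.20, adjusted p = 0.0445). At 10 µg/ml no member was called (limma), beside 0.00995% of all genes, and 2 of the 57 had an unadjusted p under 0.05, against 1033 of all genes.

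**Figure D4:**
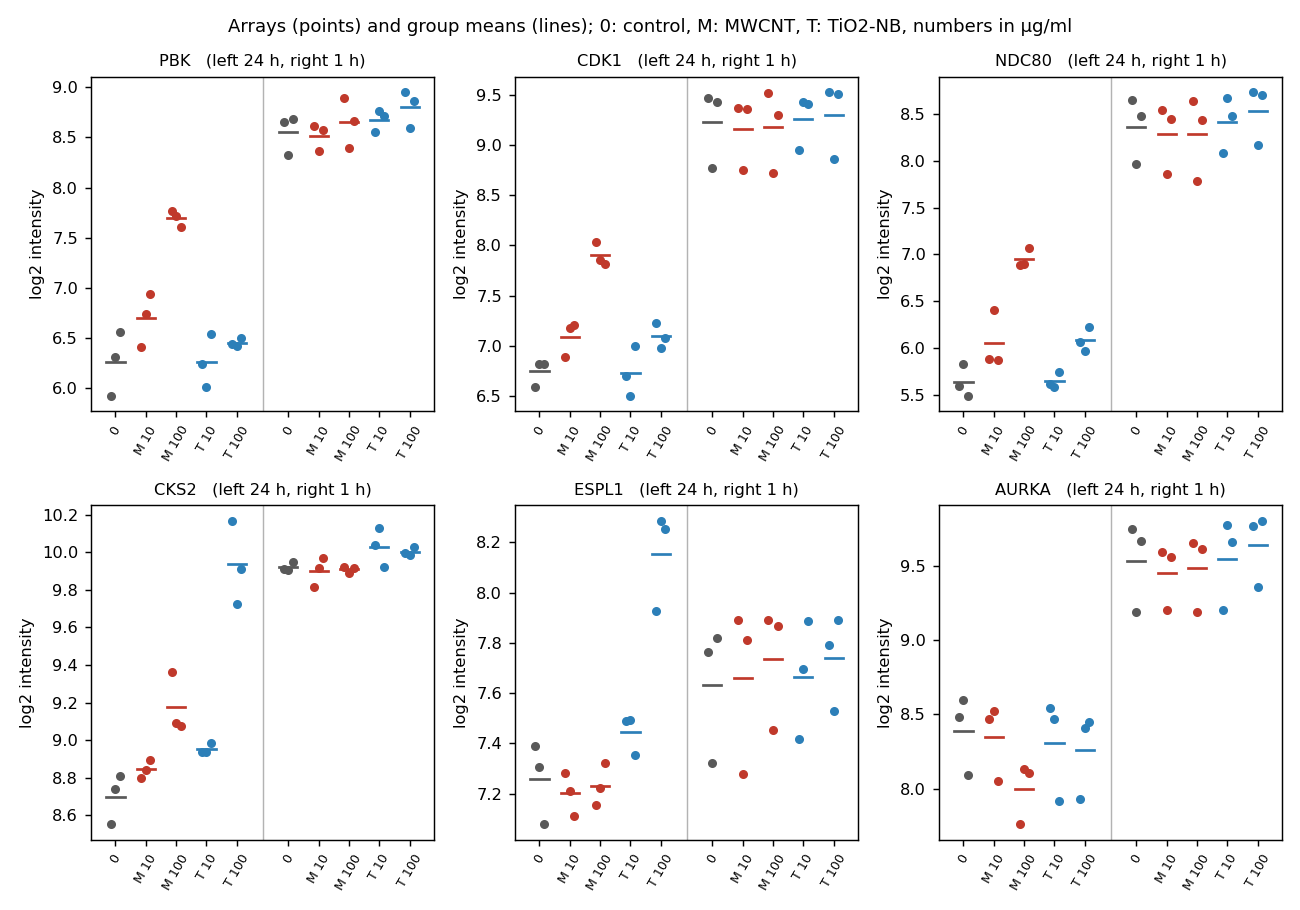
Log2 intensity (vertical axis) of 6 genes in every array, points being arrays and lines group means, with 24 h groups left and 1 h groups right in each panel. The MWCNT 100 µg/ml arrays of CDK1 and PBK lie above the other 24 h arrays, whereas CKS2 and ESPL1 are highest at 24 h with 100 µg/ml TiO2-NB.

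After 1 h no mitosis or spindle gene passed the test against the 1 h control with either material or dose (limma, without a replicate block). The shares called of all genes were 0% with 100 or 10 µg/ml MWCNT, 1.15% with 100 µg/ml TiO2-NB and 0% with 10 µg/ml TiO2-NB. Only CENPF with 100 µg/ml TiO2-NB had an unadjusted p under 0.05 (log2 fold change 0.25 ± 0.09, limma adjusted p = 0.188), against 1582 of all genes in that comparison. Equal replicate numbers deviated together there, and with the replicate number as a block 6 members were higher with 100 µg/ml TiO2-NB and none was lower, beside 3.18% and 3.63% of all genes. These were KIF18B (0.34), KIF23 (0.30), PLK4 (0.28), SMC2 (0.26), CENPF (0.25) and PBK (0.24), at limma adjusted p from 0.0433 to 0.0487. With 100 or 10 µg/ml MWCNT none passed with the block either. Medians of the 57 were 0.06 and -0.02 with 100 and 10 µg/ml MWCNT, and 0.13 and 0.07 with 100 and 10 µg/ml TiO2-NB. One array of each of the 5 groups at 1 h stood apart: its mean over the members was between 0.51 and 0.67, against 0.89 to 1.09 in the 10 other arrays. It was replicate 2 except in the 10 µg/ml TiO2-NB group, where it was replicate 1, and it lay in the controls as in the exposed groups. CDK1, for example, measured 9.51, 8.72 and 9.30 with 100 µg/ml MWCNT, against 9.47, 8.78 and 9.43 in the 1 h control.

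In unexposed cells, 55 of the 57 genes were lower at 24 h than at 1 h and none was higher (limma), beside 16.1% of all genes called lower and 20.8% called higher. The median log2 difference was -1.94, against 0.03 over all genes, and 49 of the calls were at least 2-fold. In 55 genes every 24 h control array lay below every 1 h control array, which was so for 19.6% of all genes. The largest falls were those of HMMR, ASPM and DLGAP5, proteins of the spindle and its poles. HMMR measured 6.80, 7.09 and 6.71 at 24 h, against 10.22, 9.72 and 10.17 at 1 h (-3.17 ± 0.19, adjusted p = 3.18e-12). ASPM fell by 3.10, DLGAP5 by 3.07, TTK by 2.94 and CDC20 by 2.69 on the log2 scale. CDK1 measured 6.59, 6.82 and 6.82 at 24 h, against 9.47, 8.78 and 9.43 at 1 h (-2.48 ± 0.21, adjusted p = 1.85e-09).

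The smallest falls that passed were those of BUB3 (-0.47), PLK1 (-0.54), CDCA3 (-0.58), CENPM (-0.81) and CENPA (-0.83). KIF23 (-0.26 ± 0.33, limma adjusted p = 0.587) and ESPL1 (-0.38 ± 0.16, adjusted p = 0.0652) did not pass. The call of ESPL1 was gained under 5 alternatives other than leaving out 1 array, and in 1 fit that left out 1 array. By role the median was lowest in the spindle assembly list (-2.51) and the checkpoint list (-2.26), and highest in the condensin and chromosome structure list (-1.45). Of the 59 other mitotic genes 47 fell and 1, CDC16, rose, with a median of -0.66. Of 38 DNA replication genes 28 fell, with a median of -0.65. Of 16 cell cycle exit and p53 target genes 3 rose and 6 fell, with a median of -0.23. CDKN1A was among those that rose, by 0.58 ± 0.10 (limma adjusted p = 4.79e-05). The 2 control groups differ both in time after plating and in time after PMA, which cannot be told apart.

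**Figure D5:**
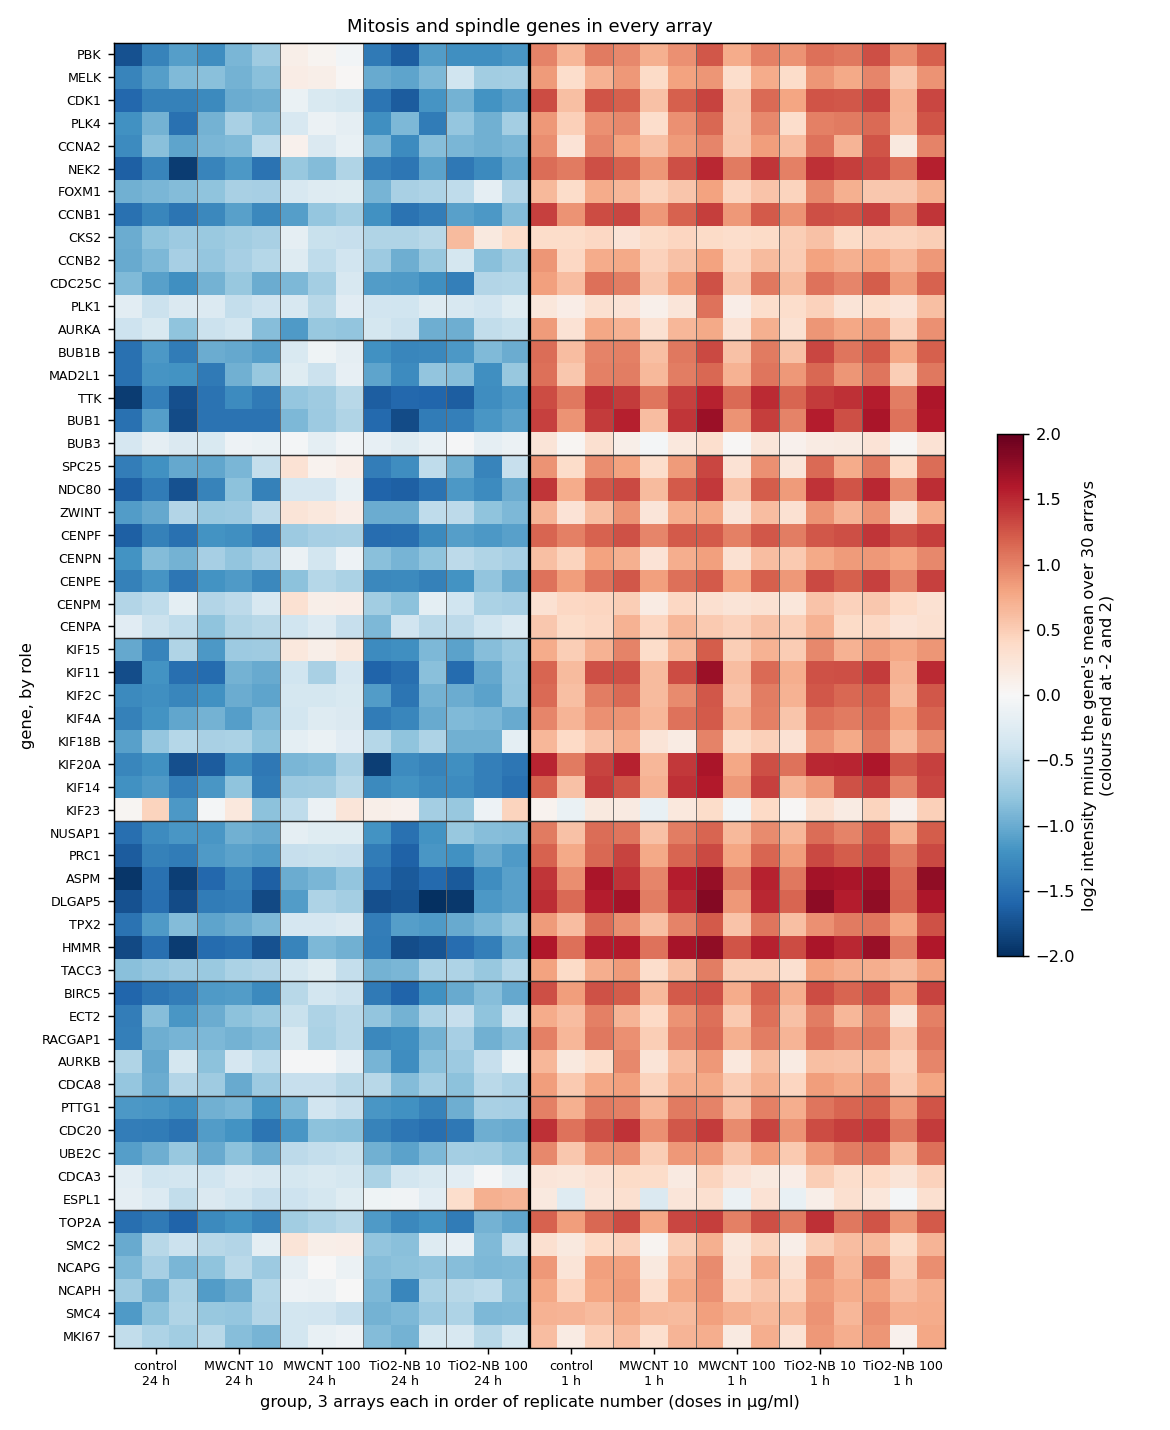
Log2 intensity of the 57 genes (rows, by role) in all 30 arrays (columns, by group), each gene relative to its mean over the 30 arrays. Colours end at -2 and 2. The 1 h arrays are high and the 24 h arrays low in nearly every row, with the MWCNT 100 µg/ml arrays of 24 h between them.

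With 100 µg/ml MWCNT at 24 h, the group mean of 53 of the 57 genes lay between those of the 24 h and the 1 h control, as did 35.7% of all genes, the 4 exceptions being AURKA, PLK1, CDCA3 and ESPL1. All 57 members, but 4497 of the 10050 genes, had a lower mean in the 24 h than in the 1 h control. For a member, lying between them therefore restates a rise with MWCNT that stayed below the 1 h control. The mean with 100 µg/ml MWCNT was the highest of the 5 groups at 24 h for 52 members, and for 24.1% of all genes. The members averaged -0.38 ± 0.04 in this group and -1.07 ± 0.08 in the 24 h control, against 0.79 ± 0.21 in the 1 h control (SD, n = 3 each, relative to each gene's own mean). The other 24 h groups averaged -0.91 ± 0.06 with 10 µg/ml MWCNT, -0.79 ± 0.07 with 100 µg/ml TiO2-NB and -1.04 ± 0.09 with 10 µg/ml TiO2-NB. In 49 genes every 24 h array, whatever the exposure, lay below every 1 h array, against 6.79% of all genes. The exceptions were BUB3, CENPM, CKS2, ESPL1, KIF23, SMC2, SPC25 and ZWINT. CKS2 averaged 9.94 ± 0.22 with 100 µg/ml TiO2-NB at 24 h, against 9.92 ± 0.03 in the 1 h control, and ESPL1 averaged 8.16 ± 0.20, against 7.63 ± 0.27. These last differences, across both time and exposure, were not tested.

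The response to 100 µg/ml MWCNT was larger at 24 h than at 1 h in 19 members (limma, interaction of exposure and time), beside 2.64% of all genes, and smaller in none, beside 1.07%. The median difference of responses was 0.69. For PBK it was 1.34 ± 0.22 (adjusted p = 0.00145) and for NDC80 1.39 ± 0.30 (adjusted p = 0.0102). Leaving out 1 array gave between 7 such members, without replicate 1 of the 24 h control, and 25. For 100 µg/ml TiO2-NB it was larger at 24 h in CKS2 and ESPL1 alone of the members, beside 7.49% of all genes.

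Over the 10 group means, each gene's correlation with the mean of the other members had a median of 0.99, and the lowest values were 0.40 for ESPL1 and 0.83 for CKS2. The member mean separated by time, at 0.78 to 0.93 in the 1 h groups and -1.07 to -0.38 in the 24 h groups. A gene that falls over time therefore scores high whatever its response to particles. AURKA (0.93) and PLK1 (0.95), not called with MWCNT, are examples. Within groups, over the 30 arrays after the group means were removed, the median correlation was 0.79, from 0.04 for CKS2 to 0.95 for KIF2C, and over the 24 h arrays alone it was 0.33. These values describe genes that share arrays and normalization. Of the 47 genes with a promoter window, 36 held TTTGAA or TTCGAA and 11 held neither of these forms. Their median log2 fold changes with 100 µg/ml MWCNT at 24 h were 0.76 and 0.65. Their medians over time in the control were -1.93 and -2.10. The PLK1 window printed above holds a TTTGAA and a CCAAT, and the CCNB1 window holds CCAAT boxes and no TTTGAA.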

How the data were processed

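RNA of 30 THP-1 cultures was hybridised to 1-colour Affymetrix arrays, 3 per group. The values are log2 intensities per probe set, deposited by the authors and made with RMA, per the submitters' processing notes; RMA corrects background, normalizes arrays to one another and summarises probes, so a shift shared by all genes cannot be seen. Its version and the annotation build used were not given in the sources used here. The deposited log2 values were not normalized again.

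Of 22277 probe sets, 62 were controls, 19064 had 1 gene in the platform annotation, 1043 several and 2108 none. Probe sets with 1 gene that lay above the array's 25th percentile on at least 3 arrays were kept (15309), and the one with the highest mean stood for each of 10050 genes. All 10 groups entered 1 linear model (R 4.3.3, limma 3.58.1, lmFit and eBayes), with no covariate, and p-values were adjusted over all 10050 genes by Benjamini-Hochberg at 0.05. SE and 95% intervals are those of this fit, so each gene's spread is pooled over all 10 groups. The SD of the member mean was 0.21 to 0.27 in the 1 h groups and 0.04 to 0.09 in the 24 h groups. The wider 1 h spread therefore enters the SE and calls at 24 h. The steps were tested on simulated data. "Not overlapping" means that every array of one group lay above every array of the other.

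The members and the gene lists were chosen with earlier results of these data known, so no test is given over a list. Genes were named in full by a rule: up to 3 called genes of each role list with the largest changes in the 24 h comparison of 100 µg/ml MWCNT, and members not called there that were lower in a comparison of exposure, material or dose (ESPL1). The 6 (other mitotic) or 3 (other lists) most changed called genes of the remaining lists, and CDKN1A, are named too. CKS2, AURKA and PLK1 were added after their values were seen. The labels do not say what an equal replicate number shares. Of 60 equally numbered pairs of arrays within a time, 38 had correlations of their deviations from group means above 0.1 and 21 were negative (-0.53 to 0.73). In 9 of 17 comparisons of 2 groups every pair was above 0.1, so there the numbers were taken as pairs and a fit with the replicate number as a block, on the arrays compared, was added after seeing the data. They were not taken as pairs for 100 µg/ml of either material against the 24 h control. The same held for the 24 h doses, the controls over time and any 1 h comparison with 10 µg/ml TiO2-NB. In that group replicates 1 and 2 opposed those of the other 1 h groups. The labels call the arrays biological replicates and give no more on their source, so p-values measure the spread between these arrays. Alternatives were other normalizations, filters, probe set rules, array weights, the replicate number as a block, the arrays compared alone, and each array left out.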

Additional observations from a re-analysis of the deposited data

Results flagged for a closer look

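The response to 100 µg/ml MWCNT differed between 24 h and 1 h, by the interaction term of the limma fit, in 19 of the 57 genes. The log2 response at 24 h minus that at 1 h was 1.39 for NDC80, 1.34 for PBK, 1.20 for CDK1, 1.16 for MELK, 1.08 for each of BUB1B, ZWINT, NUSAP1 and BIRC5, and 1.01 for KIF15. It was 0.97 for PRC1, 0.90 for KIF2C, 0.88 for TTK, 0.84 for CENPN, 0.78 for KIF4A, 0.77 for CENPF, 0.72 for TOP2A, 0.70 for CENPM, 0.63 for FOXM1 and 0.49 for CKS2. Adjusted p-values ran from 0.00145 for PBK to 0.0497 for TOP2A. For 100 µg/ml TiO2-NB the difference was 1.16 for CKS2 (limma adjusted p = 1.23e-06) and 0.79 for ESPL1 (adjusted p = 0.0176). One array of each 1 h group had lower values of nearly all members. Without it in the 100 µg/ml MWCNT group 8 members passed in place of 19, and without it in the 1 h control 25. Without it in the 100 µg/ml TiO2-NB group 1 passed in place of 2, and without it in the 1 h control 3.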

How the results depend on the processing

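Signs of single genes were checked for the genes named in full, in 4 comparisons. These were 100 µg/ml of each material against the 24 h control, the materials against each other at that dose and time, and the controls over time. There no called value changed sign under any alternative. Single values of the other members and comparisons were not checked. Among values that were not called, 9 medians over the members, 8 of them at 1 h, and 10 values of named genes changed sign under at least 1 alternative, the largest being TOP2A with 100 µg/ml TiO2-NB at 24 h (0.38, and -0.01 with the mean of all probe sets). The counts of members higher with 100 µg/ml MWCNT at 24 h (43), higher in the direct comparison of materials (28) and lower over time in the control (55) stayed within 1.5 times. The count of members lower in the direct comparison (2) became 4 with the replicate block on only the arrays compared. With array weights the count became 17 for 100 µg/ml TiO2-NB (10), 46 for the MWCNT doses (25), 13 for the TiO2-NB doses (5) and 36 for the MWCNT response over time (19). That response gave 10 with only the arrays compared, and the TiO2-NB response 4 (2) with each array centred on its median. With the 24 h arrays alone, an alternative chosen after seeing the data, 17 passed for 100 µg/ml TiO2-NB and 9 for its doses.

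With the replicate number as a block within each time, the TiO2-NB dose count was 8, and the others were 47 for MWCNT, 14 for TiO2-NB, 33 and 2 between materials, 34 for the MWCNT doses, 56 over time, 25 and 3 for the responses. The block on only the arrays compared was fitted where the numbers were taken as pairs. There 6 members were higher at 1 h with 100 µg/ml TiO2-NB (0 without), and 38 higher and 4 lower between materials at 100 µg/ml and 24 h. The other 7 such comparisons gave 0, as without the block. With the replicate block over all groups they were 43, 10, 28 and 2, 27 for the MWCNT doses, 6 for the TiO2-NB doses, 55, 21 and 2.

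Leaving out 1 array gave 31 to 39 for MWCNT, 22 to 26 between materials (2 lower each time), 4 to 8 for TiO2-NB, 10 to 21 for the MWCNT doses, 2 to 5 for the TiO2-NB doses, 55 to 56 over time, 7 to 25 for the MWCNT response and 1 to 3 for the TiO2-NB response. The cause of these shifts was not tested.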

Other observations

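At 24 h AURKA and KIF23 were lowest in replicate 3 of the 10 µg/ml MWCNT, 10 µg/ml TiO2-NB and control groups, and in replicate 1 of both 100 µg/ml groups. AURKA measured 8.47, 8.52 and 8.05 with 10 µg/ml MWCNT and 8.54, 8.47 and 7.92 with 10 µg/ml TiO2-NB, against 8.48, 8.59 and 8.09 in the control. KIF23 measured 6.56, 6.81 and 5.77 with 10 µg/ml MWCNT and 6.72, 6.68 and 5.92 with 10 µg/ml TiO2-NB, against 6.63, 7.04 and 5.46 in the control. With 100 µg/ml KIF23 measured 6.10, 6.48 and 6.84 for MWCNT and 5.84, 6.50 and 7.04 for TiO2-NB.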
